A study of Mus musculus with 3 samples.

Results

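Basophil and mast lineage barcodes were selected in single-cell RNA profiles of liver leukocytes from newborn mice by 6 transcripts of this lineage. A barcode was a member when at least 3 of Ms4a2, Fcer1a, Cpa3, Mcpt8, Prss34 and Gata2 had 2 or more UMIs (unique molecular identifiers, which count captured RNA molecules) each. Of 25845 barcodes in 3 libraries, 204 met this rule, 66 in the library labelled WT, 78 in the library labelled Het and 60 in the KO library. The 3 groups were Pex2+/+ (WT), Pex2-/+ (Het) and Pex2-/- (KO) mice at postnatal day 0, with 1 library each. No drug or other agent was named for any group. Pex2 encodes a membrane protein that peroxisomes need to import their enzymes, and its loss models severe Zellweger disease. Cells were sorted as viable and positive for CD45, the common leukocyte surface protein, after hepatocytes were spun out and red cells lysed, and were then fixed and profiled with gene-specific probes. How many animals entered a library is not stated here, so animal, preparation and genotype cannot be told apart, and no difference below was tested.

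Basophils and mast cells are granulocytes that carry the high-affinity receptor for IgE, and they release histamine, proteases and lipid mediators when it is cross-linked. Basophils mature in blood-forming tissue, which at birth still includes the liver, and circulate, whereas mast cell precursors leave early and fill their granules in tissue. Both descend from progenitors that express GATA2, Kit and CD34, and basophils lose Kit as they mature.

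The label held for most members. Besides the genes of the rule, the 15 genes that set members furthest apart from all other barcodes in every library included several known from basophils and mast cells. Cd200r3, an activating receptor of these cells, stood at 263, 386 and 767 CPM (a gene's UMIs scaled to a total of 1000000 over the summed members) in labelled WT, labelled Het and KO, against 0.0837, 0.119 and 0.146 CPM in all other barcodes. Hdc, the enzyme that makes histamine, stood at 2061, 1501 and 1445 CPM, against 86.2, 85.4 and 95.4 CPM elsewhere. Others were Cyp11a1, a steroid-producing enzyme, Alox15, a lipoxygenase, Il1rl1, the receptor for IL-33, Hgf, Csf1 and Ccl9, which are secreted factors, Ifitm1, Slc7a8, Papss2, Slc22a3, H2-Oa and Ikzf2. Since the same cells were selected by their transcripts, these levels are a description. Tpsb2, Tpsab1 and Mcpt4, tryptases and a chymase of mature connective tissue mast cells, had 0 UMIs in the members of labelled WT. In labelled Het they had 0, 0 and 1 UMIs, so the mature mast cell part of the label was nearly absent from the members of both libraries. Tryptase-bearing barcodes of labelled WT fell outside the rule, as described below.

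The upstream sequences of 5 genes that carry the comparison are shown because GATA factors are known to drive this lineage. Prss34 and Mcpt8 encode basophil proteases, Cpa3 a mast cell and basophil carboxypeptidase, and Ms4a2 the beta chain of the IgE receptor. Each is the 250 bases before the gene's start in RefSeq on GRCm38.p6, read 5′ to 3′ on the gene's strand. Capitals mark the GATA motif on either strand, spelled AGATAA, or with other ends AGATAG, or starting with T as TGATAA, or with both as TGATAG, where neighbouring matches can join into 1 run.
Prss34, chr17:25298144-25298393, plus strand: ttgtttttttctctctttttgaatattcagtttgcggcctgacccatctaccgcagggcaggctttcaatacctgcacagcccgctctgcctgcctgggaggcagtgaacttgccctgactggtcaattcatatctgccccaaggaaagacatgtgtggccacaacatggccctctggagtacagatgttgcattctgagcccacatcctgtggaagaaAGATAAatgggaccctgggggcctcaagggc
Mcpt8, chr14:56085198-56085447, minus strand: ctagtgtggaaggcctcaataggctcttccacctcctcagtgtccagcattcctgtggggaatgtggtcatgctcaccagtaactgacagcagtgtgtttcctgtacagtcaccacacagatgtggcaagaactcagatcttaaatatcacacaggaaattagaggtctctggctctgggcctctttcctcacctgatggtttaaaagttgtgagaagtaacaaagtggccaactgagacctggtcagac
Cpa3, chr3:20242182-20242431, minus strand: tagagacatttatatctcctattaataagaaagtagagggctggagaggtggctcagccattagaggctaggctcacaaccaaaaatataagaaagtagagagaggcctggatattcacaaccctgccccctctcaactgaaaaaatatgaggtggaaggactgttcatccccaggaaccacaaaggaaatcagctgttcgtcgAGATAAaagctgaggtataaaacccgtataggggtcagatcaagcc
Ms4a2, chr19:11623720-11623969, minus strand: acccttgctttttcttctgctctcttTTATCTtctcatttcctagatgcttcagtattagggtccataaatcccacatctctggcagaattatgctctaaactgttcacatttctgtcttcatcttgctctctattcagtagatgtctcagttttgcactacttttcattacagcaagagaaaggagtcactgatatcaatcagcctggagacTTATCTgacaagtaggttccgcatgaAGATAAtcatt
Cd200r3, chr16:44943428-44943677, plus strand: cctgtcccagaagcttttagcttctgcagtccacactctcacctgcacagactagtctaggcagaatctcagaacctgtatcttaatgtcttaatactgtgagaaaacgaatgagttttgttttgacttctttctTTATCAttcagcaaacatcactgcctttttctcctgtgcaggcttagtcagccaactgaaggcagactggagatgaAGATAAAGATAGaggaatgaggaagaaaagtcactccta

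The window of Prss34 held 1 match, 31 bases before the start, and that of Cpa3 held 1, 46 bases before it. The windows of Ms4a2 and Cd200r3 held 3 each, nearest at 11 and 33 bases, and that of Mcpt8 held none. Of 32851 such windows in RefSeq, 8718 (26.5%) held a match. A match is a description of letters and not a bound site.

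Depth differed between libraries. The median barcode had 8218.5, 15558.5 and 19348 UMIs in labelled WT, labelled Het and KO, and the median member 13971.5, 22723 and 18989. Pex2 was 13.1 CPM in labelled WT members, 67.4 CPM in labelled Het members and 0 in KO members, where 3 counts would be 2.19 CPM. The KO library matched its label, but the order of the other 2 libraries goes against theirs, so they are called labelled WT and labelled Het throughout. No whole barcode was shared between libraries. The first 16 bases, which mark the droplet, were shared with another library by 13, 16 and 15 members. Scrublet marked 0, 0 and 1 members as doublets. Neutrophil RNA was also found in B lineage barcodes. After thinning to 5000 UMIs, S100a8, a neutrophil transcript, was found in 97.6%, 95.1% and 98.5% of B lineage barcodes and in 90.9%, 77.6% and 95% of members. Of 1983, 1335 and 902 B lineage barcodes, only 939, 1070 and 658 had the depth to be thinned.

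Members were about as frequent in KO as in labelled WT. They made up 0.688% of barcodes in labelled WT (exact 95% Clopper-Pearson interval 0.532 to 0.874), 0.975% in labelled Het (0.771 to 1.22) and 0.728% in KO (0.556 to 0.936). The ratio of KO to labelled WT was 1.06 (0.734 to 1.52), that of KO to labelled Het 0.746 (0.524 to 1.06) and that of labelled Het to labelled WT 1.42 (1.01 to 1.999). These intervals, and all others here, cover counting error only. After every barcode was thinned to 3000 UMIs before the rule was applied, 55, 52 and 48 members remained, and the 3 ratios were 0.974, 0.899 and 1.08. The higher share in labelled Het was thus close to the others at equal depth. Thinning left out 770, 297 and 333 shallower barcodes.

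Just outside the rule, 48, 65 and 26 barcodes passed for exactly 2 genes, with a median of 4.5 Gata2 UMIs in labelled WT, 4 in labelled Het and 2 in KO. Just inside, 10, 16 and 9 barcodes passed for exactly 3, with medians of 9.5, 11.5 and 8 Gata2 UMIs. Most members passed for 5 or 6 genes, namely 51 of 66 members in labelled WT, 51 of 78 in labelled Het and 37 of 60 in KO.

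Nearly all members leaned to the basophil side, by genes that had also chosen them. Mcpt8 and Prss34 belong to the rule, and Fcer1a passed in only 14, 24 and 8 members. A barcode without either protease thus mostly needed Ms4a2, Cpa3 and Gata2 together, so the rule itself favours this side. The shares are a description. With 2 or more UMIs of Mcpt8 or Prss34, 63 of 66 members in labelled WT (95.5%, exact interval 87.3 to 99.1), 72 of 78 in labelled Het (92.3%, 84.0 to 97.1) and 55 of 60 in KO (91.7%, 81.6 to 97.2) were basophil-leaning. Mast-leaning members, with 2 or more Cpa3 UMIs, no Mcpt8 UMI and fewer than 2 Prss34 UMIs, numbered 2, 4 and 4. Their shares were 3.03% (0.369 to 10.5), 5.13% (1.41 to 12.6) and 6.67% (1.85 to 16.2), with overlapping intervals. The remaining 1, 2 and 1 had a single Mcpt8 UMI. Cpa3 did not set the sides apart, since 58, 65 and 54 basophil-leaning members also had 2 or more Cpa3 UMIs. Both proteases passed in 54 of 66, 56 of 78 and 39 of 60 members. At 3 or more UMIs of Mcpt8 or Prss34, 59, 66 and 54 members were basophil-leaning and 5, 7 and 2 leaned to neither. Some basophil-leaning members had few protease UMIs beside progenitor transcripts. A labelled WT barcode of 40628 UMIs had 2 of Mcpt8, 0 of Prss34, 11 of Kit and 39 of Cd34. Among barcodes that passed for only 1 gene of the rule, 110, 120 and 165 passed for Mcpt8. Leaning depended on depth. At 3000 UMIs per member, 56 of 66, 56 of 77 and 42 of 60 were basophil-leaning, and 1, 5 and 9 mast-leaning.

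**Figure D1:**
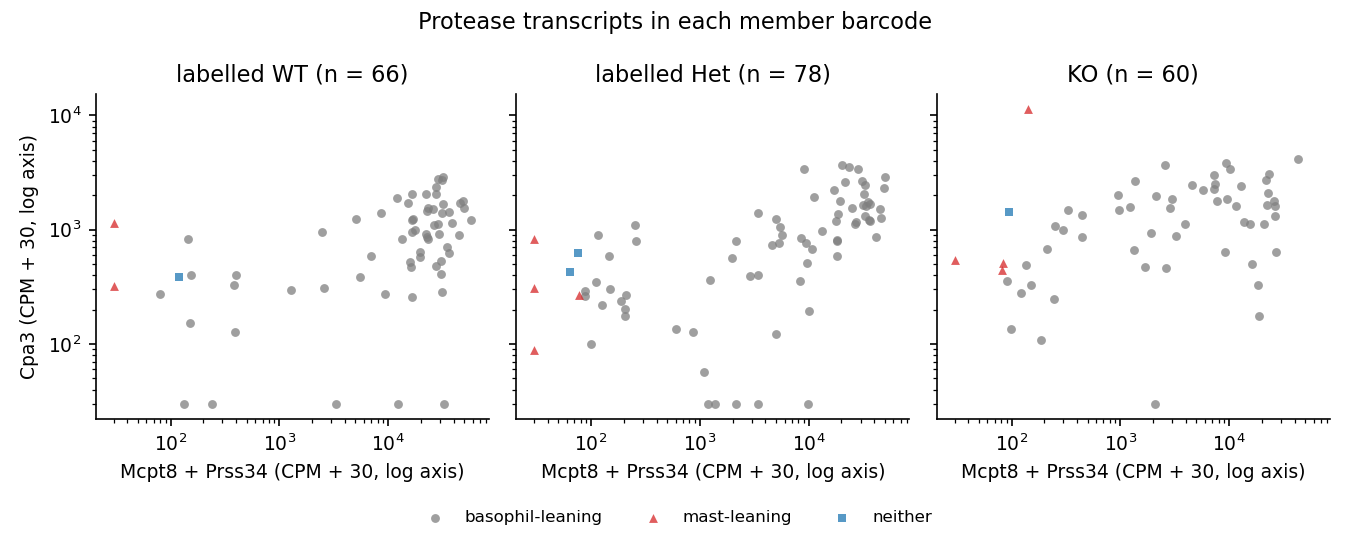
Each point is 1 member barcode, with the summed Mcpt8 and Prss34 level on the x axis and the Cpa3 level on the y axis, both as CPM of that barcode plus 30 on log axes. Most points of labelled WT sit at the right, while labelled Het and KO spread over the whole width. The mast-leaning points (triangles) are 2, 4 and 4, and the highest Cpa3 level is a KO barcode.

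Mast-leaning members mostly lacked the granule proteases of mature mast cells. Only 1 of the 10 carried tryptase, a KO barcode of 9025 UMIs with 379 UMIs of Tpsb2, 379 of Tpsab1, 54 of Cma1, a chymase, 240 of Hdc, 103 of Cpa3 and 31 of Kit, the stem cell factor receptor. Tpsb2 and Tpsab1 are near-identical copies, so their separate counts are uncertain. Mast-leaning members also held progenitor transcripts, with Cd34 summed to 228, 640 and 653 CPM and Mpo, myeloperoxidase, to 5378, 4747 and 7919 CPM. In basophil-leaning members these were 228, 303 and 300 CPM and 12434, 16176 and 8481 CPM. A mast-leaning labelled Het member of 7195 UMIs had 16 of Cd200r3, 5 of Fcer1a and 0 of Kit and Mpo. The name thus describes transcripts of the rule and not a settled cell type. Over all libraries 4 barcodes had 2 or more Tpsb2 UMIs, and the other 3 were all in labelled WT and outside the rule. Those 3 had 441, 540 and 73 UMIs of Tpsb2, 160, 79 and 41 of Cpa3 and 40, 40 and 15 of Gata2, but only 1, 0 and 0 of Ms4a2 and none of Mcpt8, Prss34 or Fcer1a. Tryptase-bearing barcodes were thus 3 of 9600, 0 of 8000 and 1 of 8245, where 3 of 8000 would be 0.0375%. These barcodes were noticed after their values were seen. Mast-leaning members, at 2, 4 and 4 with overlapping intervals, had another order.

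Over all members, the basophil proteases were lowest in KO, and the genes of the rule did not move together. These genes chose the cells, so their levels are given as a description, although the 2-fold count below also includes Prss34. Mcpt8 stood at 8822 CPM in labelled WT, 4776 in labelled Het and 3436 in KO, and Prss34 at 8836, 6252 and 2902. The median member had 10380, 1940 and 1132 CPM of Mcpt8 and 7900, 3020 and 1768 CPM of Prss34. The lowest member of each library had 0 CPM of both. The highest had 27141, 23185 and 25802 CPM of Mcpt8 and 38496, 36666 and 17415 CPM of Prss34. The libraries overlapped over most of the range for Mcpt8, while the highest KO member lay at a lower level of Prss34 than the highest of the other libraries. Gata2, the transcription factor, had the same order, at 3082, 1769 and 1155 CPM. Among the 35, 29 and 32 members without 2 UMIs of Mki67 or Top2a, a subset chosen after seeing the data, Mcpt8 stood at 8483, 4735 and 4814 CPM, so KO was not the lowest there. Prss34 stood at 9358, 6556 and 4078 CPM in that subset.

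The IgE receptor chains and the carboxypeptidase had another order. Ms4a2 was near level, at 1331, 1344 and 1580 CPM, and passed 2 UMIs in 60, 69 and 57 members. Fcer1a, the chain that binds IgE, was low, at 71.3, 69.5 and 39.4 CPM, and passed in 14, 24 and 8 members. Cpa3 stood at 911, 896 and 1409 CPM. Its summed level in KO was 1.55-fold that in labelled WT (1.43 to 1.67) and 1.57-fold that in labelled Het (1.47 to 1.68). Single members overlapped, with lower and upper quartiles of 361 and 1387, 263 and 1374, and 503 and 1992 CPM. Cpa3 also chose the members, so these values are a description. Without the tryptase-bearing KO barcode and those rich in Prg2, Cpa3 stood at 929, 910 and 1347 CPM.

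**Figure D2:**
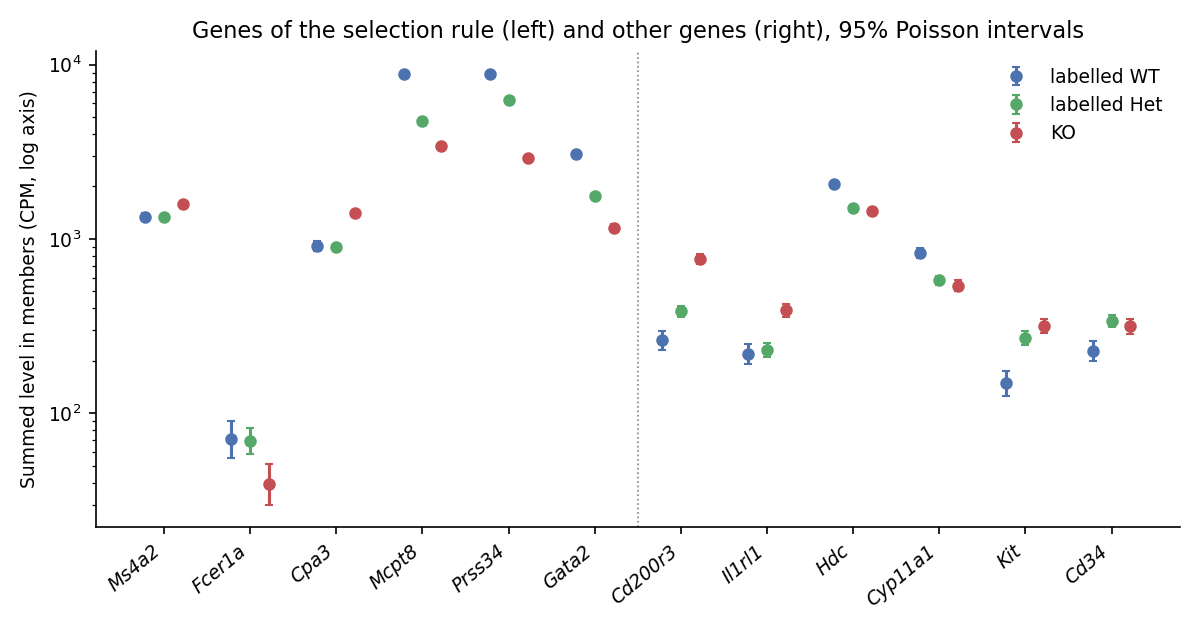
Summed level in members (CPM, log axis) of the 6 genes of the rule and of 6 other genes in the 3 libraries, with exact 95% Poisson intervals that cover counting error only. Mcpt8, Prss34 and Gata2 descend from labelled WT to KO, while Cpa3, Cd200r3 and Il1rl1 are highest in KO.

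The members ranged from progenitor-like to mature profiles, and the mix differed between libraries. Kit was detected in 31.8% of labelled WT members (20.9 to 44.4), 51.3% of labelled Het members (39.6 to 63.0) and 65.0% of KO members (51.6 to 76.9) after thinning to 5000 UMIs. Unthinned, the shares were 54.5%, 74.4% and 81.7%, and in thinned B lineage barcodes 18.7%, 14.4% and 5.32%. Cd34, a surface protein of progenitors, was detected in 34.8%, 47.4% and 66.7% of thinned members, against 51.5%, 69.2% and 76.7% unthinned and 4.47%, 2.34% and 1.82% of thinned B lineage barcodes. Thinning kept 66, 76 and 60 members, and 939, 1070 and 658 B lineage barcodes, of 1983, 1335 and 902. All B lineage barcodes, those left out as too shallow included, had a median of 4686, 8363 and 6217 UMIs. The B lineage shares thus describe the deeper barcodes. As a level, Kit was 149, 271 and 318 CPM and Cd34 229, 338 and 315 CPM. Both belong to a list of 12 stem and progenitor markers, of which 8 averaged 10 CPM or more. In KO, 3 of these 8 were above both other libraries and 2 below both, with none past 2-fold. Their median log2 ratios were 0.41 over labelled WT and 0.03 over labelled Het, beside 0.09 and 0.03 for all genes. The 12 markers summed to 1035, 1490 and 1413 CPM, so the list as a whole was not higher in KO than in labelled Het.

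Other features of maturity pointed in more than 1 direction. Cd200r3 was detected in 65.2%, 60.5% and 61.7% of thinned members and in none of the B lineage barcodes, so the shares were alike although its level was highest in KO. Itga2b, an integrin chain of megakaryocytes and early progenitors, was detected in 51.5%, 53.9% and 73.3%, against 84.8%, 92.3% and 98.3% unthinned and 1.17%, 1.03% and 0.608% of B lineage barcodes. Itga2, the integrin chain behind the basophil marker CD49b, was detected in 34.8%, 26.3% and 15%, against 62.1%, 57.7% and 41.7% unthinned and 0, 0 and 0.304% of B lineage barcodes. Mki67, a marker of cycling cells, was detected in 43.9% (31.7 to 56.7), 46.1% (34.5 to 57.9) and 30% (18.8 to 43.2), with overlapping intervals, against 57.6%, 60.3% and 45.0% unthinned. It was found in 75.7%, 65.0% and 35.1% of thinned B lineage barcodes, so a lower share in KO was also seen among those deep enough to thin. Itga2b, Itga2 and Mki67 were chosen for this check after earlier results were known.

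**Figure D3:**
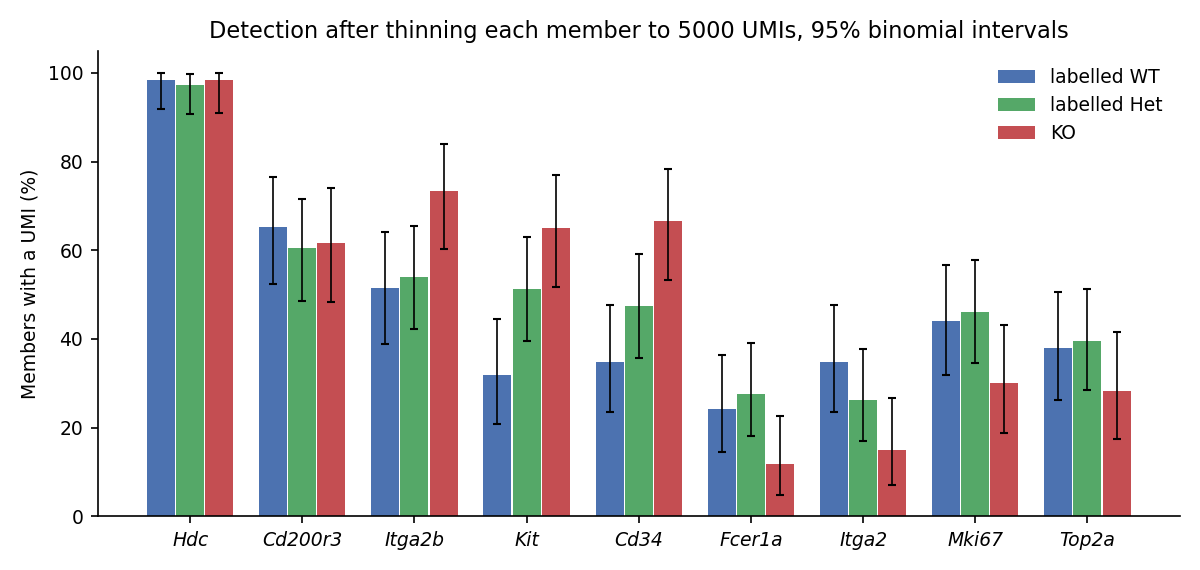
Share of members with a UMI of each gene after every member was thinned to 5000 UMIs (66, 76 and 60 members), with exact 95% binomial intervals. Kit, Cd34 and Itga2b are highest in KO, Fcer1a and Itga2 lowest, and Hdc and Cd200r3 alike in the 3 libraries.

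Levels were also summed over progenitor-like and other members separately, as a description. Members with at least 3 of Kit, Cd34, Flt3, Hlf, Mecom, Meis1 and Adgrg1 at 2 or more UMIs numbered 21, 45 and 39 (31.8%, 57.7% and 65.0%), a share that also depends on depth. Among the other 45, 33 and 21 members, Prss34 stood at 12902, 11332 and 6244 CPM and Mcpt8 at 11823, 10715 and 8425 CPM. Gata2 stood at 3825, 2292 and 1455 CPM and Cd200r3 at 390, 712 and 1775 CPM in them. Among the progenitor-like members Prss34 was 2300, 3822 and 1712 CPM and Mcpt8 3997, 1936 and 1660 CPM. KO was lowest for both proteases in both subsets.

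Across the transcriptome, KO members differed from both other libraries by at least 2-fold in a small share of genes. The genes tested were 5120 that averaged 50 CPM or more and had 30 or more UMIs. Of these, 55 (1.07%) were at least 2-fold higher in KO than in both other libraries, and 51 (0.996%) at least 2-fold lower. Prss34, which helped choose the members, was among the 51. No limit on single barcodes was set here. Without the tryptase-bearing barcode and those rich in Prg2, 51 genes were higher, 50 of them among the 55. Then 53 were lower, 46 of them among the 51. By the same 2-fold rule 18 genes (0.352%) were higher and 44 (0.859%) lower in labelled WT than in the other 2 libraries. In labelled Het 12 (0.234%) were higher and 3 (0.0586%) lower. The distance of KO was thus of the same order as that of labelled WT on the lower side and larger on the higher side. In all other barcodes of the series 20 of 3954 genes (0.506%) were higher and 89 (2.25%) lower in KO, while 3 (0.0759%) were higher and 8 (0.202%) lower in labelled WT and 6 (0.152%) higher and 0 lower in labelled Het.

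Among genes higher in KO, the largest difference was in Slc28a2, a nucleoside transporter. It stood at 44.2 CPM in labelled WT, 218 CPM in labelled Het and 1960 CPM in KO, which is 44.3-fold (32.9 to 61.2) and 8.99-fold (8.10 to 9.99) higher in KO. It had a UMI in 19 of 66, 57 of 78 and 60 of 60 members, so no KO member lacked it. Labelled Het was also above labelled WT, and all other barcodes had the same order at lower levels, with 19.9, 45.2 and 98.2 CPM. Gpr65, an acid-sensing receptor, had a like order, with 10.0, 57.3 and 211 CPM in members and 39.6, 57.3 and 101 CPM elsewhere.

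Other genes were higher in KO members while the other barcodes showed little or no such difference. Rab27b, a small GTPase that docks secretory granules, stood at 62.3, 42.5 and 212 CPM in members, which is 3.40-fold (2.58 to 4.55) and 4.99-fold (3.88 to 6.47) higher in KO. Elsewhere it was 3.04, 3.44 and 3.28 CPM. Cd69, a surface protein of activated leukocytes, stood at 26.1, 37.7 and 123 CPM, against 8.46, 9.63 and 6.01 CPM elsewhere. Tns1, a protein of adhesion sites, stood at 30.1, 33.4 and 92.8 CPM, and Stk19 at 59.3, 57.9 and 161 CPM. The KO log2 ratios over labelled WT elsewhere were -0.08 for Tns1 and -0.48 for Stk19. Whether the difference in members was larger than elsewhere was not tested.

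The remaining named genes that were higher in KO members were higher elsewhere too. Zfp949, a zinc finger gene, stood at 77.4, 96.1 and 328 CPM in members and at 52.1, 54.6 and 80.0 CPM elsewhere, a smaller difference there. Pla2g7, which inactivates platelet-activating factor, stood at 104, 97.7 and 336 CPM in members and 63.4, 93.8 and 259 CPM elsewhere. Trp53inp1, a stress-induced p53 target, stood at 29.1, 31.3 and 90.6 CPM in members and 94.8, 87.5 and 230 CPM elsewhere. mt-Atp6, mt-Nd1 and mt-Co3 completed the 12 and are described with their list.

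Among genes lower in KO, Fosb, a subunit of the AP-1 transcription factor, was first. It stood at 497 CPM in labelled WT, 187 CPM in labelled Het and 16.1 CPM in KO, or 31.0-fold (20.2 to 49.8) and 11.7-fold (7.58 to 18.9) lower in KO. It had a UMI in 62 of 66, 56 of 78 and 14 of 60 members, and in the other barcodes it was 24.9, 12.5 and 0.746 CPM. Gstp3, a glutathione transferase with close paralogs whose probes may be shared, stood at 251, 162 and 21.2 CPM in members and 112, 95.8 and 3.31 CPM elsewhere. Both were therefore low in the KO library as a whole.

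Btnl9, a butyrophilin-like protein, and Igfbp7, a secreted binding protein, were lower in KO members and scarce elsewhere. Btnl9 stood at 178, 209 and 35.1 CPM in members and 2.47, 3.14 and 2.42 CPM elsewhere. Igfbp7 stood at 99.5, 62.6 and 22.6 CPM in members, with 35.5% of the KO UMIs in 1 barcode. Gsn, the actin-severing protein gelsolin, stood at 462, 625 and 171 CPM in members and 760, 633 and 475 CPM elsewhere. The same direction was seen for Rcn3, a chaperone-like protein of the secretory pathway, at 196, 151 and 36.5 CPM, and Lst1, a leukocyte protein, at 182, 190 and 43.1 CPM. Tmem98, a membrane protein, stood at 98.5, 75.9 and 20.5 CPM, Rnf43, a ubiquitin ligase of Wnt signalling, at 77.4, 62.1 and 18.3 CPM, and Klf16, a transcription factor, at 74.4, 66.3 and 22.6 CPM. Rcn3, Lst1, Tmem98, Rnf43 and Klf16 were also lower in KO in the other barcodes. Their log2 ratios over labelled WT there were -1.76, -1.05, -4.12, -1.83 and -1.63.

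**Figure D4:**
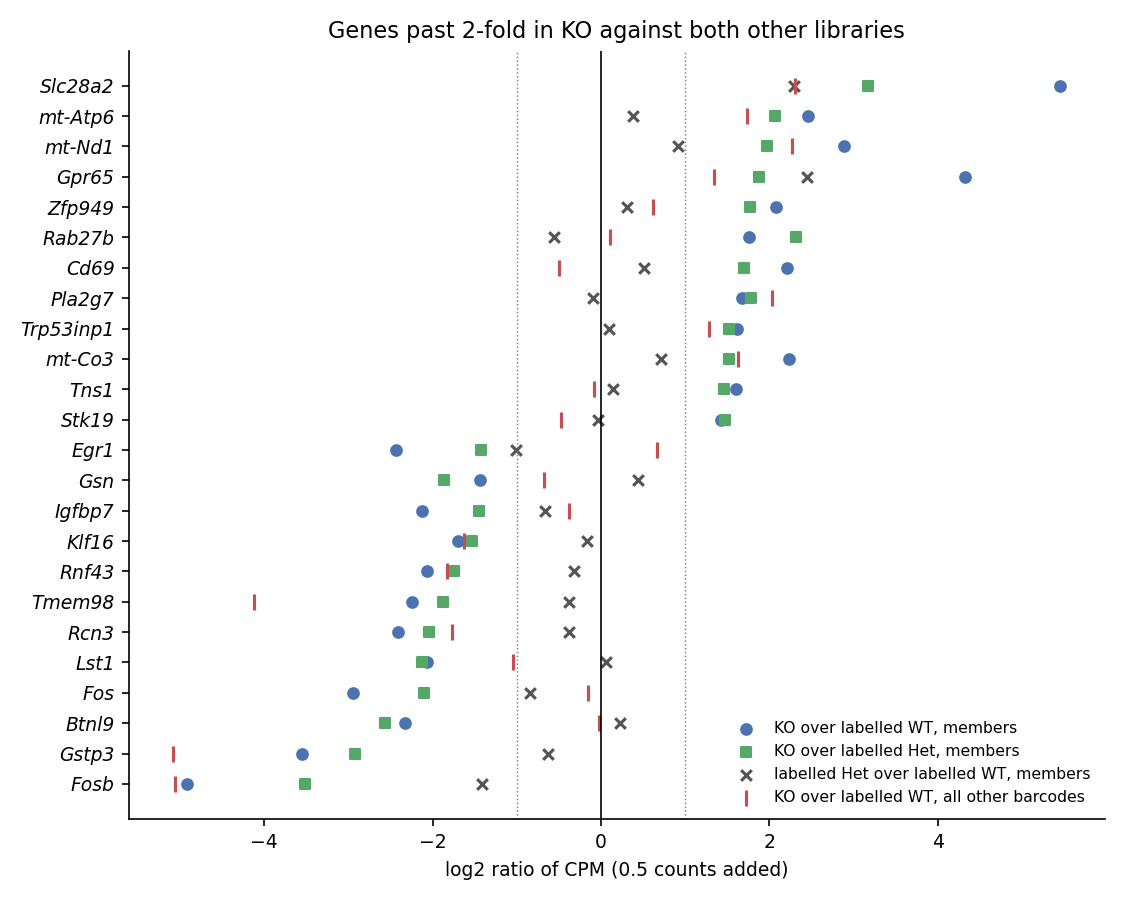
log2 ratios in members of the 24 genes named by size, with KO over labelled WT (circles), KO over labelled Het (squares) and labelled Het over labelled WT (crosses), and KO over labelled WT in all other barcodes (bars). Dotted lines mark 2-fold. Bars lie near the members' values for Pla2g7, Klf16 and Fosb and near 0 for Rab27b, Btnl9 and Fos.

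Immediate early genes, which cells switch on within minutes of a stimulus or of handling, were ordered from labelled WT down to KO. Of 14 measured members of the list, 4 were at least 2-fold lower in KO and none higher, and 11 were below both other libraries and none above. In this and later lists, counts past 2-fold are against both other libraries. Over 8980 genes with a mean of at least 10 CPM, 34% were below both, 42.5% above both, 2.1% at least 2-fold lower and 1.57% at least 2-fold higher. The list had median log2 ratios of -1.13 over labelled WT and -0.37 over labelled Het, beside 0.09 and 0.03 for all genes, and labelled Het was itself below labelled WT by a median of -0.81. Fos stood at 194, 108 and 24.8 CPM, Egr1, a zinc finger factor, at 293, 146 and 54.0 CPM, and Jun, the partner of Fos, at 278, 158 and 71.6 CPM. Jund, another AP-1 subunit, stood at 933, 470 and 265 CPM, and Klf6, a zinc finger factor, at 564, 339 and 272 CPM. In B lineage barcodes the order differed for Fos, at 22.1, 15.7 and 23.5 CPM, and for Egr1, at 18.3, 27.0 and 104 CPM. Fosb had the same descending order there as in members, at 8.32, 3.38 and 0.434 CPM. When every member counted equally at 3000 UMIs, the KO to labelled Het log2 ratios were -0.98 for Fos, -0.99 for Egr1 and -0.79 for Jun, under 2-fold. The part of tissue handling in these values was not tested.

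Mitochondrially encoded transcripts were higher in KO members. Of 13 genes, 8 were at least 2-fold higher in KO than in both other libraries, 12 were above both and none was below both. Their median log2 ratios were 1.42 over labelled WT and 1.23 over labelled Het. mt-Atp6, a subunit of ATP synthase, stood at 241, 315 and 1326 CPM, mt-Co2, a subunit of cytochrome oxidase, at 484, 626 and 1567 CPM, and mt-Nd1, a subunit of complex I, at 95.5, 180 and 707 CPM. mt-Co3 stood at 176, 288 and 825 CPM, and mt-Nd6 was the exception, at 276, 105 and 130 CPM. The other barcodes had the same order, with mt-Atp6 at 146, 193 and 487 CPM and 302, 455 and 1234 CPM in the B lineage, so the B lineage differed in the same direction. Of the 20 lists of functions and programmes plotted, this was the only list whose medians were at least 0.25 above all genes against both libraries.

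Genes of cell division were somewhat lower in KO members. Of 24 mitosis genes, 3 were at least 2-fold lower in KO, none was higher by that margin, and 18 were below and 4 above both other libraries, with medians of -0.45 and -0.34. Ube2c, the ubiquitin-conjugating enzyme of mitotic exit, stood at 145, 129 and 59.9 CPM, and Prc1, a protein of the spindle midzone, at 62.3, 66.3 and 29.2 CPM. Top2a, the topoisomerase of dividing cells, stood at 358, 314 and 283 CPM, but Mki67 at 265, 295 and 313 CPM had the opposite order. A single KO barcode held 19.8% of the Mki67 UMIs of KO members, and without it Mki67 in KO was 260 CPM. With the barcode richest in Mki67 left out of every library, a check chosen after seeing the data, the levels were 245, 280 and 260 CPM. Of 25 S-phase genes, 13 were below and 2 above both, and none differed by 2-fold.

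Secretory and metabolic lists were also below all genes. Of 19 endoplasmic reticulum chaperones, 15 were below both libraries and 2 above, with medians of -0.44 and -0.43 and 1 gene, Creld2, past 2-fold (65.3, 76.4 and 31.4 CPM). Pdia6, a disulphide isomerase, stood at 522, 548 and 311 CPM, and Calr, the calcium-binding chaperone, at 525, 706 and 435 CPM. Of 19 glycolysis and hypoxia genes, 13 were below both and 5 above, with medians of -0.32 and -0.41. Ldha, lactate dehydrogenase, stood at 1334, 1066 and 541 CPM. Of 13 genes of the ATF4 and serine-folate list, 3 were at least 2-fold lower in KO, with medians of -0.39 and -0.63. Its members Asns, asparagine synthetase, at 32.2, 144 and 15.3 CPM, and Mthfd2, a mitochondrial folate enzyme, at 43.2, 166 and 17.5 CPM, stood out more for their level in labelled Het.

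**Figure D5:**
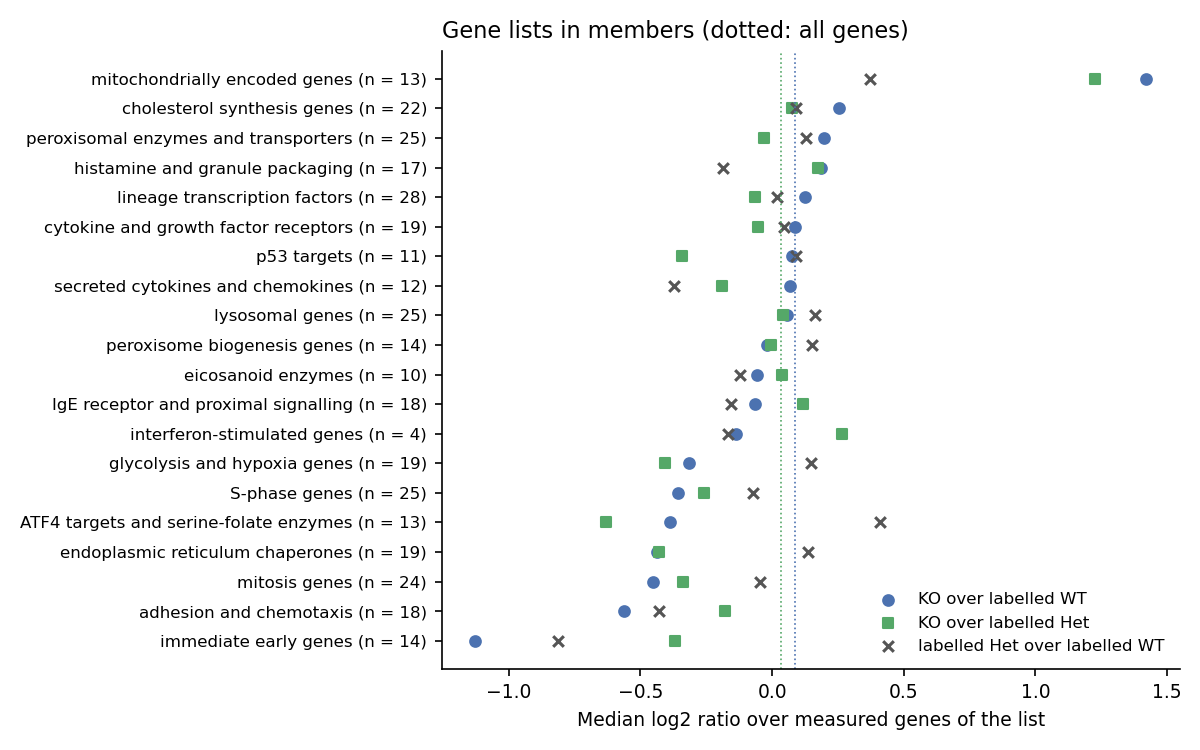
Median log2 ratio over the measured genes of each list in members, for KO over labelled WT (circles), KO over labelled Het (squares) and labelled Het over labelled WT (crosses), with dotted lines at the medians of all genes (0.09 and 0.03). Mitochondrially encoded genes lie furthest to the right and immediate early genes furthest to the left for KO over labelled WT.

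Peroxisome genes other than Pex2 were near level in KO members. The 14 measured genes of peroxisome biogenesis, Pex2 included, had medians of -0.02 and -0.00, and Pex2 was the only one past 2-fold. Pex5, the import receptor, stood at 91.4, 99.3 and 116 CPM. The 25 peroxisomal enzymes and transporters had medians of 0.20 and -0.03, and none differed by 2-fold. Cat, catalase, stood at 206, 225 and 245 CPM, and Prdx5, a peroxiredoxin also found in mitochondria, at 708, 551 and 365 CPM. The 22 genes of cholesterol synthesis had medians of 0.26 and 0.07, with none past 2-fold.

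Signalling from the IgE receptor showed no common direction. Of 18 measured genes, 7 were above and 5 below both libraries, and none differed by 2-fold, with medians of -0.07 and 0.12. Fcer1g, the gamma chain, stood at 1535, 1073 and 1056 CPM, and Syk, the kinase it recruits, at 368, 335 and 299 CPM. Of 19 cytokine and growth factor receptors, 9 were above and 8 below both libraries. Il7r, the receptor for IL-7, was more than 2-fold higher in KO, at 31.2, 27.6 and 79.6 CPM, and Il18r1, a receptor for IL-18, more than 2-fold lower, at 27.1, 36.6 and 13.1 CPM. Il3ra, the receptor chain for the basophil growth factor IL-3, stood at 960, 505 and 315 CPM. It was 3.05-fold lower in KO than in labelled WT (2.72 to 3.42) and 1.61-fold lower than in labelled Het (1.43 to 1.80). Csf2rb, its common beta chain, was level at 573, 572 and 609 CPM, and Il1rl1 was higher in KO, at 219, 230 and 389 CPM.

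Granule and secreted products differed gene by gene. Of 17 genes of histamine and granule packaging, Rab27b was more than 2-fold higher in KO, and so was Gzma, a granzyme, at 0, 0.531 and 38.0 CPM with all 52 KO UMIs in 1 barcode. Ctsg, the protease cathepsin G, was more than 2-fold lower, at 4973, 4017 and 1554 CPM. Srgn, the proteoglycan core of the granule, stood at 5540, 4789 and 3860 CPM. Of the 12 secreted factors measured, only Ccl6, a chemokine, passed 2-fold against both other libraries, higher in KO at 23.1, 29.7 and 88.4 CPM. Csf1, a macrophage growth factor, stood at 441, 316 and 161 CPM, Tgfb1, a growth-inhibiting cytokine, at 825, 532 and 384 CPM, and Hgf was near level at 685, 570 and 700 CPM. Of lineage transcription factors, 11 of 28 were above and 13 below both libraries, with none past 2-fold against both. Cebpa, a factor that favours basophils over mast cells, stood at 1625, 1141 and 766 CPM, and Runx1 at 853, 556 and 494 CPM.

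Genes of adhesion and chemotaxis were more often below than above both libraries in KO. Of 18 measured, 10 were below and 3 above, none passed 2-fold against both, and the medians were -0.56 and -0.18. Spn, the sialoglycoprotein CD43, stood at 1186, 832 and 694 CPM and Itgb2, a leukocyte integrin chain, at 776, 500 and 422 CPM. Cxcr4, the receptor that holds cells in blood-forming tissue, had the opposite order, at 489, 1029 and 1383 CPM. Eicosanoid enzymes were near level, with medians of -0.06 and 0.04 over 10 genes. Alox5ap, which serves leukotriene synthesis, stood at 2874, 2609 and 2701 CPM, and Pla2g7 was the only gene of the list past 2-fold.

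Targets of p53, lysosomal genes and interferon-stimulated genes gave no common direction. Of 11 p53 targets, Trp53inp1 was more than 2-fold higher and Cdkn1a, an inhibitor of the cell cycle, more than 2-fold lower in KO, the latter at 142, 86.0 and 33.6 CPM. The 25 lysosomal genes had medians of 0.06 and 0.04, with 11 above and 8 below both libraries and none past 2-fold. Only 4 interferon-stimulated genes were measured, 2 above and 2 below both.

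Markers of mast cells rested in part on 1 barcode in KO. Of 7 measured markers, 5 were at least 2-fold higher in KO (Tpsb2, Tpsab1, Cma1, Rab27b and Hs3st1). But the tryptase-bearing barcode held 47.3% of the summed marker UMIs there, against 5.88% and 4.38% for the highest barcode in labelled WT and labelled Het. It held all 379 Tpsb2 UMIs and 54 of the 57 Cma1 UMIs of KO members. Without it and the barcodes rich in Prg2, only 4 markers were measured. Their median log2 ratios were 1.23 over labelled WT and 0.74 over labelled Het, beside 1.76 and 1.95 for the 7. The summed level was 376, 497 and 1450 CPM, and 12 of 19 markers had no UMI in labelled WT, 11 in labelled Het and 6 in KO. Without the tryptase-bearing barcode alone, Rab27b in KO was 197 CPM and Kit 297 CPM, beside 212 and 318 CPM with it. Hs3st1, a heparan sulphate sulphotransferase, stood at 71.3, 78.0 and 207 CPM.

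Transcripts of other cells were unevenly spread over the members. Neutrophil lineage markers summed to 29952, 44612 and 27432 CPM in members, of which 1 KO barcode held 29.6%, against 221715, 211648 and 233271 CPM in the other barcodes. Mpo, myeloperoxidase, which granulocyte progenitors also make, accounted for 12299, 15379 and 8426 CPM of it. Eosinophil markers summed to 2999, 1393 and 1052 CPM, of which 1 barcode in each library held 89.1%, 58.0% and 75.9%, and 2, 3 and 1 members also met a rule for eosinophils. Prg2, the eosinophil major basic protein, had 2191 UMIs in 1 labelled WT barcode of 19229 UMIs. B lineage markers summed to 300, 95.5 and 93.5 CPM, monocyte and macrophage markers to 668, 499 and 532 CPM, and NK, innate lymphoid and T cell markers to 1200, 829 and 698 CPM. Gene by gene the last list went the other way. Of its 5 measured genes, 3 were above and 1 below both libraries in KO, and 2 were at least 2-fold higher. The medians of these 5 were 0.88 over labelled WT and 0.94 over labelled Het. Dendritic cell markers summed to 181, 164 and 104 CPM, megakaryocyte and platelet markers to 540, 546 and 661 CPM and erythroid markers to 52.2, 92.9 and 59.2 CPM. Hepatocyte markers summed to 367, 230 and 668 CPM, nearly all of it Trf, which encodes transferrin, at 365, 228 and 662 CPM, and 5, 4 and 1 of 7 had no UMI. Whether such transcripts moved the values above was not tested beyond the subsets named.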

How the data were processed

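Livers of newborn mice were strained, cleared of hepatocytes and red cells, sorted for viability and CD45, fixed and profiled with the Flex probe assay, per the labels' protocols, in 3 libraries of 1 genotype each. Per the submitters' processing notes, the authors used Cell Ranger 7.0.0 with mm10. The deposited matrices hold raw UMI counts as whole numbers, and other settings are not given in the sources used. Probes read only part of a transcript, so near-identical genes may share them.

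Members were taken from all deposited barcodes by the rule stated above, with no further filter. UMIs were summed over the members of a library and given as CPM of that sum. Levels have exact Poisson intervals, ratios exact conditional ones and shares exact Clopper-Pearson ones, all at 95%. log2 ratios had 0.5 counts added. Since each genotype had 1 library, nothing was tested, and genes were called by size: 2-fold against both other libraries, for genes averaging 50 CPM or more with 30 or more UMIs. Lists used genes with a mean of at least 10 CPM. Named genes were the first 12 in each direction by the smaller ratio, after Xist, Tsix, Y-linked genes and immunoglobulin segments were left out. They also needed a UMI in at least 20% of members of the higher group and no barcode with over 25% of that library's UMIs. The 15 genes that mark members by fold over all other barcodes, with 10 CPM added, were named too, as were leading or called genes of each list. Of the genes so named, 2 are not reported here. Genes outside this rule (mt-Nd6, Itga2, Itga2b, Il18r1 and the tryptase barcodes) were named after their values were seen. B lineage barcodes were non-members with at least 4 of 10 B cell markers at 2 or more UMIs. Doublets were called with Scrublet in scanpy 1.11.5 and kept. TMM came from edgeR 4.0.16 and size factors from DESeq2 1.42.0 (R 4.3.3), as alternative scalings. Sums and intervals were computed with scipy 1.17.1, numpy 2.4.6 and pandas 2.3.3 under Python 3.11.15. The members, gene lists and comparisons were chosen with earlier results of these data known.

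The size rule was tested on simulated data with counting error only, for KO members against both others, on 5113 genes. It called 50 of 50 genes raised and 49 of 50 lowered 3-fold, 0 of 50 raised and 0 of 50 lowered 1.3-fold and 0 of 4914 unchanged. The true ratio lay inside its interval for 95.3% of genes.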

Additional observations from a re-analysis of the deposited data

How the results depend on the processing

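No paired analysis was possible because each genotype has 1 library, and the libraries share only a single replicate number. Taking neutrophil-marker barcodes out of the denominator gave a ratio of member shares, KO over labelled WT, of 0.730. This denominator left only 195, 226 and 243 barcodes, with all members kept, although 61, 75 and 50 members carried 3 neutrophil markers at 5 or more UMIs themselves. At 3000 UMIs per member the basophil-leaning share was 84.8%, 72.7% and 70.0%. The number of genes 2-fold higher in KO, 55 above, became 154 with members thinned to 3000 UMIs, 141 with a mean of at least 10 CPM, 157 with no filter on the mean and 335 at 1.5-fold. The number lower, 51 above, became 154, 189, 222 and 232. Among members without 2 UMIs of Mki67 or Top2a, chosen after seeing the data, the numbers were 96 and 110. Thinned members had 2 lists, in place of 1, at least 0.25 above all genes. Leaving out barcodes with 3 neutrophil markers at 5 or more UMIs kept only 5, 3 and 10 members. There the KO to labelled Het log2 ratio turned for Pla2g7 (-1.44), Stk19 (-1.40), Fos (0.36), Egr1 (1.09) and Prss34 (1.31). Medians against labelled Het, less that of all genes, turned for p53 targets (0.12) and B lineage markers (1.34) in non-dividing members. Those of megakaryocyte markers turned in basophil-leaning (0.061), thinned (0.50) and non-dividing members (0.35) and at a mean of 1 CPM (0.075). The cause of these shifts was not tested, except that thinning leaves fewer counts per gene. Of the values of single genes under the alternatives, 642 kept their direction and side of 2-fold, 20 fell under 2-fold, 15 passed it, 2 moved and 5 turned. TMM moved the median of all genes from 0.09 to -0.01 against labelled WT. Depth limits low genes such as Fcer1a most, and the lack of a second library per genotype limits every comparison.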
